A study of Phlebiopsis gigantea with 8 samples.

Results

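The response of the white-rot fungus *Phlebiopsis gigantea* to the extractives of pine wood was read from 6 of the 8 RNA-seq libraries of the series, 3 from cultures on non-extracted loblolly pine wood (NELP) and 3 from cultures on acetone-extracted loblolly pine wood (ELP). NELP was freshly harvested loblolly pine, ground through a 1 mm mesh, spiked with acetone and dried. For ELP the extractives had been washed out of this wood with acetone in a Soxhlet extractor before drying, so both woods had met acetone. Each culture held 250 ml of basal salts with the wood as carbon source, and mycelium was harvested on day 5. Cultures received 1.25 g of wood by the study's methods and 2.5 g by the labels. The strain whose genome the study sequenced is a single basidiospore isolate, and the cultures are taken here to be of this 1 genotype. The remaining 2 libraries, from glucose medium, entered only 1 of the alternative fits. Of 11892 gene models, 11891 had values, and 10970 averaged 1 RPKM or more across the 6 libraries and entered the test.

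Extractives are the part of wood that dissolves in organic solvents. In pine sapwood they include resin acids, monoterpenes, triglycerides, free fatty acids and sterols, which repel water and inhibit many fungi. *P. gigantea* is known for colonizing freshly cut conifer wood before most other decay fungi. Lipases release fatty acids and glycerol from triglycerides, cytochromes P450 hydroxylate terpenoids and many other compounds, and glutathione S-transferases, aldehyde dehydrogenases and aldo-keto reductases act on reactive products. ABC proteins of the G subfamily carry small hydrophobic compounds out of fungal cells. NELP against ELP therefore asks which transcripts differ when these compounds are in the wood.

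Values are RPKM, reads per kilobase of gene model scaled to library size. Differences were tested with limma on log2(RPKM + 0.5), a scale that understates the change of low transcripts. A gene was called at an adjusted p under 0.05 by the method of Benjamini and Hochberg. Below, "higher" and "lower" mean in NELP relative to ELP, values are given for replicates 1, 2 and 3 in that order, and ± is the SD of 3 libraries.

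The estimated number of reads behind the values was 10210000, 15040000 and 18240000 in NELP, against 5955000, 7201000 and 6978000 in ELP, so every NELP library was estimated to be deeper than every ELP library. The numbers come from the spacing of low values and assume that the annotated gene lengths were used in making RPKM, and 31.3 to 39.7% of low values came out as whole reads within 0.05, against 10% for values without spacing. For a gene of 1500 bases, 1 RPKM stood for 15.3 to 27.4 reads in NELP and for 8.93 to 10.8 reads in ELP. Medium and depth cannot be told apart in this design. Libraries of the same medium correlated at r = 0.974 to 0.982 in NELP and at 0.953 to 0.980 in ELP, and libraries of different media at 0.916 to 0.959, all across genes. The first principal component took 53.9% of the variance and put the NELP libraries at -39.9 to -21.6 and the ELP libraries at 19.9 to 39.0. The second took 26.03% and set replicate 1 apart from replicate 3 in both media. All 11 tested actin-like models, which serve as a check of the mycelial background, missed the threshold. Hydrophobins, chitin and glucan synthases, actins and tubulins as a group had 2 of 48 tested members (4.17%) higher and 0 lower. Over all tested genes 6.07% were higher and 4.30% lower, so few calls would fall in groups this small in any case.

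**Figure D1:**
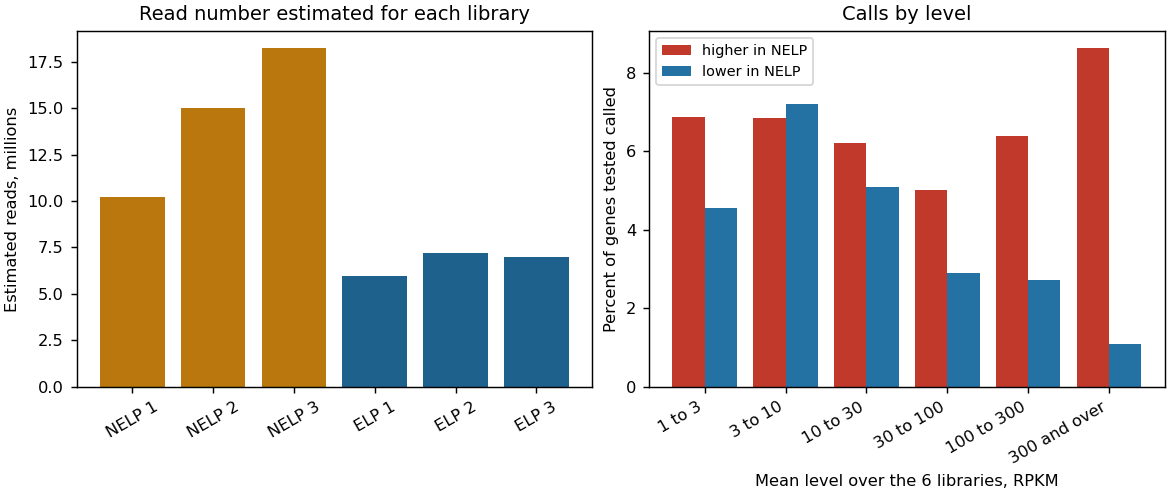
Left, the estimated number of reads of each library, with NELP orange and ELP blue. Right, the percent of tested genes called higher (red) or lower (blue) in NELP, in bins of mean level over the 6 libraries in RPKM. NELP libraries had 10210000 to 18240000 reads and ELP libraries 5955000 to 7201000, and calls lower in NELP were 7.21% of genes at 3 to 10 RPKM and 1.08% of those at 300 RPKM and over.

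Removal of the extractives was accompanied by changes in 1138 genes. Of the 10970 tested genes, 666 (6.07%) were higher and 472 (4.30%) were lower in NELP. No called gene had overlapping media, and over all tested genes 1829 lay wholly higher and 2433 wholly lower in NELP. The changes were small for most genes, since the median log2 fold change over all tested genes was -0.07 with quartiles of -0.36 and 0.24. Genes called higher had a median of 1.02 and genes called lower a median of -0.85. At more than 2-fold and at least 10 RPKM in the higher medium, 258 genes (2.35%) were higher and 104 (0.948%) lower. At more than 4-fold, 41 (0.374%) were higher and 2 (0.0182%) lower, which are the multicopper oxidase Phlgi1_129839 and the hypothetical protein Phlgi1_266925.

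The number of calls rested on the libraries used. Without NELP 1, NELP 2 or NELP 3 the test called 144, 212 or 115 genes higher and 57, 55 or 28 lower. Without ELP 1 or ELP 2 it called 185 or 254 higher and 71 or 34 lower, and without ELP 3 it called 658 higher and 721 lower. With a block for replicate number it called 1119 higher and 1486 lower, so the excess of higher calls was not kept there either. In 1 fit of all 8 libraries with the glucose medium, only 1 gene was called, the cytochrome P450 Phlgi1_20514. In that fit the spread is shared by all media, and the median SD of the log2 values was 0.50 in glucose, 0.19 in NELP and 0.22 in ELP. No called gene changed sign under any of the 14 alternatives. Of the 170 called genes named by the rule, 45 lost their call only in the fit with glucose, and 124 lost it without at least 1 library.

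**Figure D2:**
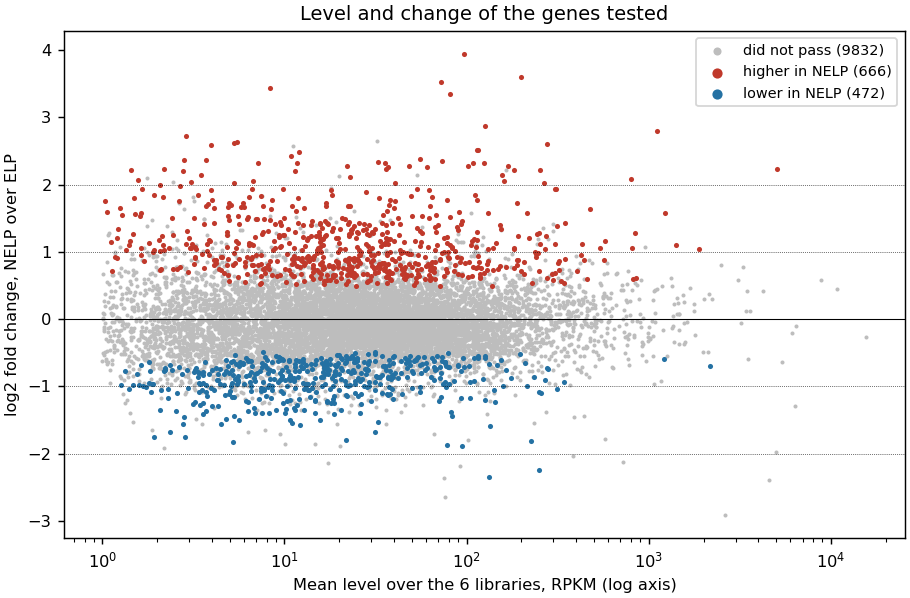
Each point is 1 of the 10970 tested genes, placed by its mean level over the 6 libraries in RPKM (log axis) and its log2 fold change of NELP over ELP. Red points are the 666 genes higher in NELP and blue points the 472 lower, and dotted lines mark 2-fold and 4-fold, with 41 genes past the 4-fold criteria upward and 2 downward.

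The called genes took a larger share of the transcripts on non-extracted wood. Genes called higher made up 8.51, 8.87 and 9.73% of all RPKM in NELP, against 3.44, 3.86 and 4.02% in ELP. Genes called lower made up 1.78, 1.79 and 1.60% in NELP, against 3.01, 3.06 and 3.16% in ELP. These shares follow from the calls and are a description. Calls in the 2 directions differed in level, with a median of 23.5 RPKM for genes called higher, 16.2 RPKM for genes called lower and 27.3 RPKM for all tested genes. Of genes averaging at least 300 RPKM, 8.63% were higher and 1.08% lower, and of those at 3 to 10 RPKM 6.84% were higher and 7.21% lower. A total of 24 models were listed at 0 in all ELP libraries and above 0 in all NELP libraries, at means of at most 1.42 RPKM in NELP, and 0 models showed the opposite. None of the 24 was called, and the part of the deeper NELP libraries in this count was not tested.

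Some of the most abundant transcripts varied widely between cultures. Of the 10 genes with the highest mean level, the test called only Phlgi1_123837, a C2H2 zinc finger domain protein. Its transcripts stood at 6674, 9209 and 9035 RPKM in NELP and at 1641, 1296 and 2498 RPKM in ELP. The media did not overlap, the log2 fold change was 2.24 ± 0.26 (SE, adjusted p = 0.0083, limma), and the difference of 6494 RPKM was the largest of any called gene. Methanol oxidase Phlgi1_120749, which forms hydrogen peroxide from methanol, had 10760, 9787 and 10917 RPKM in NELP and 5020, 7003 and 9810 RPKM in ELP. Its media overlapped, and its log2 fold change of 0.58 ± 0.24 missed the threshold (limma adjusted p = 0.15). The hypothetical Phlgi1_30712 had 2008, 1004 and 811 RPKM in NELP and 7282, 14041 and 2324 RPKM in ELP. These did not overlap, but ELP varied 6-fold among its own cultures, and the log2 fold change of -2.39 ± 0.64 also missed the threshold (limma adjusted p = 0.055). The hypothetical Phlgi1_46070 had 2738, 1629 and 1139.5 RPKM in NELP and 9554, 12191 and 2679 RPKM in ELP, and the unnamed Phlgi1_405876 had 6274, 3484 and 1467 RPKM in NELP and 14406, 8683 and 3711 RPKM in ELP. Both had overlapping media, with log2 fold changes of -1.98 ± 0.58 and -1.29 ± 0.63 (limma adjusted p = 0.068 and 0.20). Replicate 3 was the lowest library of its medium in all of these last 3 genes.

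Among 57 tested lipases and esterases 3 (5.26%) were higher and 1 (1.75%) lower, with a median log2 fold change of 0.05, so the family as a whole stayed below the shares of 6.07 and 4.30% for all genes. A pair of class 3 lipases accounted for its large changes. The class 3 lipase Phlgi1_19028, of a family that cleaves triglycerides, had 1878, 1477 and 2480 RPKM in NELP and 324, 271 and 233 RPKM in ELP. Every NELP culture was at least 4-fold above every ELP culture, and the log2 fold change was 2.80 ± 0.22 (limma adjusted p = 0.0053). A second class 3 lipase, Phlgi1_36659, had 304, 240 and 319 RPKM in NELP and 121, 76.2 and 68.5 RPKM in ELP, again without overlap. Its log2 fold change was 1.73 ± 0.24 (limma adjusted p = 0.013, and 0.052 without NELP 3). Of the 12 tested models with the class 3 lipase domain, 11 had a positive log2 fold change, at a median of 0.31, but only these 2 passed. A carotenoid ester lipase, Phlgi1_74623, was called at 322 ± 91.2 RPKM in NELP and 161 ± 23.8 RPKM in ELP. It lost its call in 5 of the 6 cases without 1 library, at limma adjusted p up to 0.13, and passed in only 5 of the 14 alternatives.

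Glycerol, the other product of triglyceride cleavage, enters fungal cells through channels of the major intrinsic protein family. Of 9 tested models of that family and glycerol kinase, 4 (44.4%, against 6.07% of all genes) were higher and 0 lower, at a median log2 fold change of 0.96, and without 1 library 1 to 4 were higher. Found by their InterPro description alone, the channels had 3 of 7 members higher and a median of 1.04. The glycerol facilitator Phlgi1_99331 had 2432, 2260 and 2949 RPKM in NELP and 998, 1326 and 1408 RPKM in ELP. The glycerol kinase Phlgi1_106139, which phosphorylates glycerol after its entry, had 591, 543 and 542 RPKM in NELP and 266, 298 and 298 RPKM in ELP. Neither overlapped, and their log2 fold changes were 1.04 ± 0.19 and 0.96 ± 0.13 (limma adjusted p = 0.022 and 0.013). The kinase kept its call without any single library, whereas the facilitator lost it in 5 of the 6 cases, at adjusted p up to 0.074. Aquaporins Phlgi1_23768 and Phlgi1_69030 were 3.99- and 2.09-fold higher, and each lost its call in 3 of the 6 cases.

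Few genes of fatty acid activation, beta-oxidation and desaturation were called. Of 47 tested members, 1 (2.13%, against 6.07% of all genes) was higher and 1 (2.13%, against 4.30%) lower. Their median of -0.08 was close to that of all tested genes. The higher one was Phlgi1_104158, a thiolase named as a sterol carrier protein, with 33.2 ± 8.54 RPKM in NELP and 11.996 ± 3.63 RPKM in ELP. The lower one was Phlgi1_92667, named as an acyl-CoA dehydrogenase and carrying a cytochrome b5 domain, with 108, 85.2 and 63.5 RPKM in NELP and 242, 208 and 153 RPKM in ELP. Its media did not overlap, and its log2 fold change was -1.23 ± 0.25 (limma adjusted p = 0.029, up to 0.086 without 1 library). In the TCA cycle and glyoxylate shunt 3 of 26 members (11.5%, against 6.07% of all genes) were higher and 0 lower. However, only 1 was higher in each of the 6 fits without 1 library. Among these, malate dehydrogenase Phlgi1_22176 had 69.6, 49.1 and 77.0 RPKM in NELP and 14.6, 20.5 and 11.999 RPKM in ELP, a log2 fold change of 2.03 ± 0.25 (limma adjusted p = 0.0089).

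**Figure D3:**
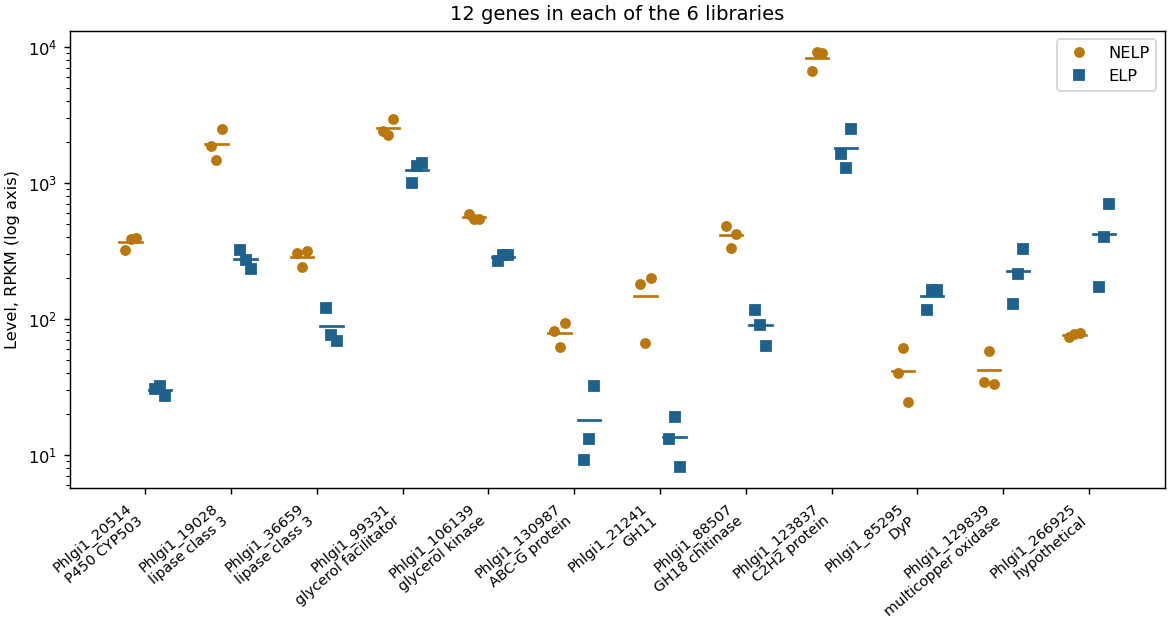
Levels of 12 genes in RPKM (log axis) in each of the 3 NELP (orange circles) and 3 ELP libraries (blue squares), with lines at the means. No gene has overlapping media, the first 9 are higher in NELP and the last 3 lower, and ELP spreads most in Phlgi1_266925, with 173 to 698 RPKM.

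Cytochromes P450 changed in both directions. Of 123 tested models, 10 (8.13%, against 6.07% of all genes) were higher and 13 (10.6%, against 4.30%) lower, at a median log2 fold change of -0.16, and the summed P450 transcripts of 3609, 4575 and 4245 RPKM in NELP overlapped those of 2842, 3464 and 5853 RPKM in ELP. The higher members changed more than the lower ones. Phlgi1_20514, named CYP503 in the deposited table and placed in another P450 family by the study, had 324, 390 and 394 RPKM in NELP and 30.8, 32.1 and 27.1 RPKM in ELP. Its replicates differed little beside a 12.3-fold change, the log2 fold change was 3.60 ± 0.15 (limma adjusted p = 2.87e-04), and the call held under all 14 alternatives. Phlgi1_19184 had 103, 77.8 and 122 RPKM in NELP and 14.3, 25.6 and 22.9 RPKM in ELP, and passed without any single library.

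A trio of the higher P450s was uneven among the NELP cultures. Phlgi1_119094 had 124, 335 and 140 RPKM in NELP and 24.3, 34.8 and 35.2 RPKM in ELP. Phlgi1_20511 had 138, 341 and 107 RPKM in NELP and 17.1, 25.5 and 58.9 RPKM in ELP. Phlgi1_75338 had 9.26, 20.9 and 7.09 RPKM in NELP and 1.52, 2.01 and 1.98 RPKM in ELP. In each of them NELP 2 was more than 2-fold above NELP 1 and NELP 3, and the media did not overlap. Their log2 fold changes were 2.52 ± 0.38, 2.52 ± 0.55 and 2.33 ± 0.36. Calls were lost without 1 library in 1, 5 and 2 of the 6 cases, at limma adjusted p up to 0.052, 0.097 and 0.056. Phlgi1_131147, a CYP61 of the kind that desaturates sterols in yeast, was 2.08-fold higher, at 112 ± 19.5 RPKM in NELP and 54.1 ± 13.6 RPKM in ELP.

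The P450s called lower were mostly weak transcripts. Their log2 fold changes ran from -1.22 for Phlgi1_114194 to -0.58 for Phlgi1_26261. Phlgi1_114194 had 16.1, 19.9 and 17.6 RPKM in NELP and 38.4, 42.1 and 46.0 RPKM in ELP, did not overlap and kept its call without any single library. The count of P450s was 2 to 10 higher and 1 to 10 lower without 1 library. Members of large families share sequence, and how multiply mapping reads were counted is not stated in the sources used, so values of close P450 copies are uncertain.

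Other enzymes of oxidation and conjugation also went both ways. Of 28 glutathione S-transferases, 2 (7.14%, against 6.07% of all genes) were higher and 2 (7.14%, against 4.30%) lower. Phlgi1_113065 had 54.4, 53.4 and 47.8 RPKM in NELP and 13.7, 17.03 and 12.8 RPKM in ELP, while Phlgi1_115840 had 10.7, 8.94 and 6.71 RPKM in NELP and 23.1, 22.7 and 16.2 RPKM in ELP. Neither overlapped, with log2 fold changes of 1.81 ± 0.15 and -1.20 ± 0.22 (limma adjusted p = 0.0053 and 0.022). Of 17 aldehyde dehydrogenases, which oxidize aldehydes to acids, 5 (29.4%, against 6.07% of all genes) were higher and 2 (11.8%, against 4.30%) lower, and without 1 library 1 to 4 were higher and 0 to 2 lower. Phlgi1_91685, at the highest level among those called higher, had 1261, 1129 and 1165 RPKM in NELP and 347, 560 and 593 RPKM in ELP, a log2 fold change of 1.28 ± 0.22 (limma adjusted p = 0.020, up to 0.067 without 1 library). Phlgi1_115040 was 2.67-fold higher and kept its call without any single library. In the opposite direction, Phlgi1_124575 averaged 27.8 ± 4.55 RPKM in NELP and 60.2 ± 4.42 RPKM in ELP.

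Of 52 aldo-keto reductases 8 (15.4%, against 6.07% of all genes) were higher and 2 (3.85%, against 4.30%) lower, with a median of -0.06. Without 1 library 0 to 6 were higher. The group includes the aryl alcohol dehydrogenase Phlgi1_89048, with 347, 342 and 257 RPKM in NELP and 200, 153 and 124 RPKM in ELP. Its call was lost in 4 of the 6 cases without 1 library. Of 42 zinc-type alcohol dehydrogenases, 3 (7.14%) were higher and 1 (2.38%) lower. Of 98 short-chain dehydrogenases, 5 (5.10%) were higher and 3 (3.06%) lower. Both were near the 6.07 and 4.30% of all genes. Thioredoxins, peroxiredoxins, catalases, superoxide dismutases and related proteins, which handle peroxide, superoxide and disulfides, counted 5 of 36 (13.9%) higher and 2 (5.56%) lower, and 2 to 3 higher without 1 library. Glutathione peroxidase Phlgi1_89284 had 486, 397 and 555 RPKM in NELP and 75.5, 132 and 192 RPKM in ELP, and peroxiredoxin Phlgi1_95619 had 108, 90.5 and 96.0 RPKM in NELP and 25.6, 31.6 and 20.7 RPKM in ELP. Both were without overlap, at log2 fold changes of 1.93 ± 0.33 and 1.92 ± 0.18 (limma adjusted p = 0.020 and 0.0071), and the peroxidase lost its call in 4 of 6 cases without 1 library.

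The large transporter families had no more calls than all genes. Of 53 ABC proteins 3 (5.66%) were higher and 1 (1.89%) lower, and of 181 major facilitator and sugar transporters 7 (3.87%) were higher and 7 lower, with medians of -0.10 and -0.09. The ABC-G protein Phlgi1_130987 had 81.3, 61.8 and 93.8 RPKM in NELP and 9.15, 13.1 and 32.0 RPKM in ELP. The media did not overlap, but ELP 3 stood well above the other ELP cultures. The log2 fold change of 2.27 ± 0.42 (limma adjusted p = 0.024) lost its call in 5 of the 6 cases without 1 library, at adjusted p up to 0.079. A second ABC-G protein, Phlgi1_95544, had 17.5, 18.7 and 16.5 RPKM in NELP and 8.96, 8.93 and 9.41 RPKM in ELP, and kept its call in all 6 cases. The major facilitator Phlgi1_123755 averaged 711 ± 123 RPKM in NELP and 244 ± 114.6 RPKM in ELP, and the general substrate transporter Phlgi1_73600 averaged 63.2 ± 6.08 RPKM in NELP and 145 ± 25.5 RPKM in ELP. They lost their calls in 5 and 3 of the 6 cases without 1 library. Amino acid and peptide transporters had 8 of 45 members (17.8%, against 6.07% of all genes) higher and 3 (6.67%, against 4.30%) lower, but 0 to 7 were higher and 0 to 2 lower without 1 library. The higher ones include the oligopeptide transporter Phlgi1_34454, at 377, 391 and 579 RPKM in NELP and 116, 179 and 229 RPKM in ELP. Its call was lost in 5 of the 6 cases without 1 library.

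**Figure D4:**
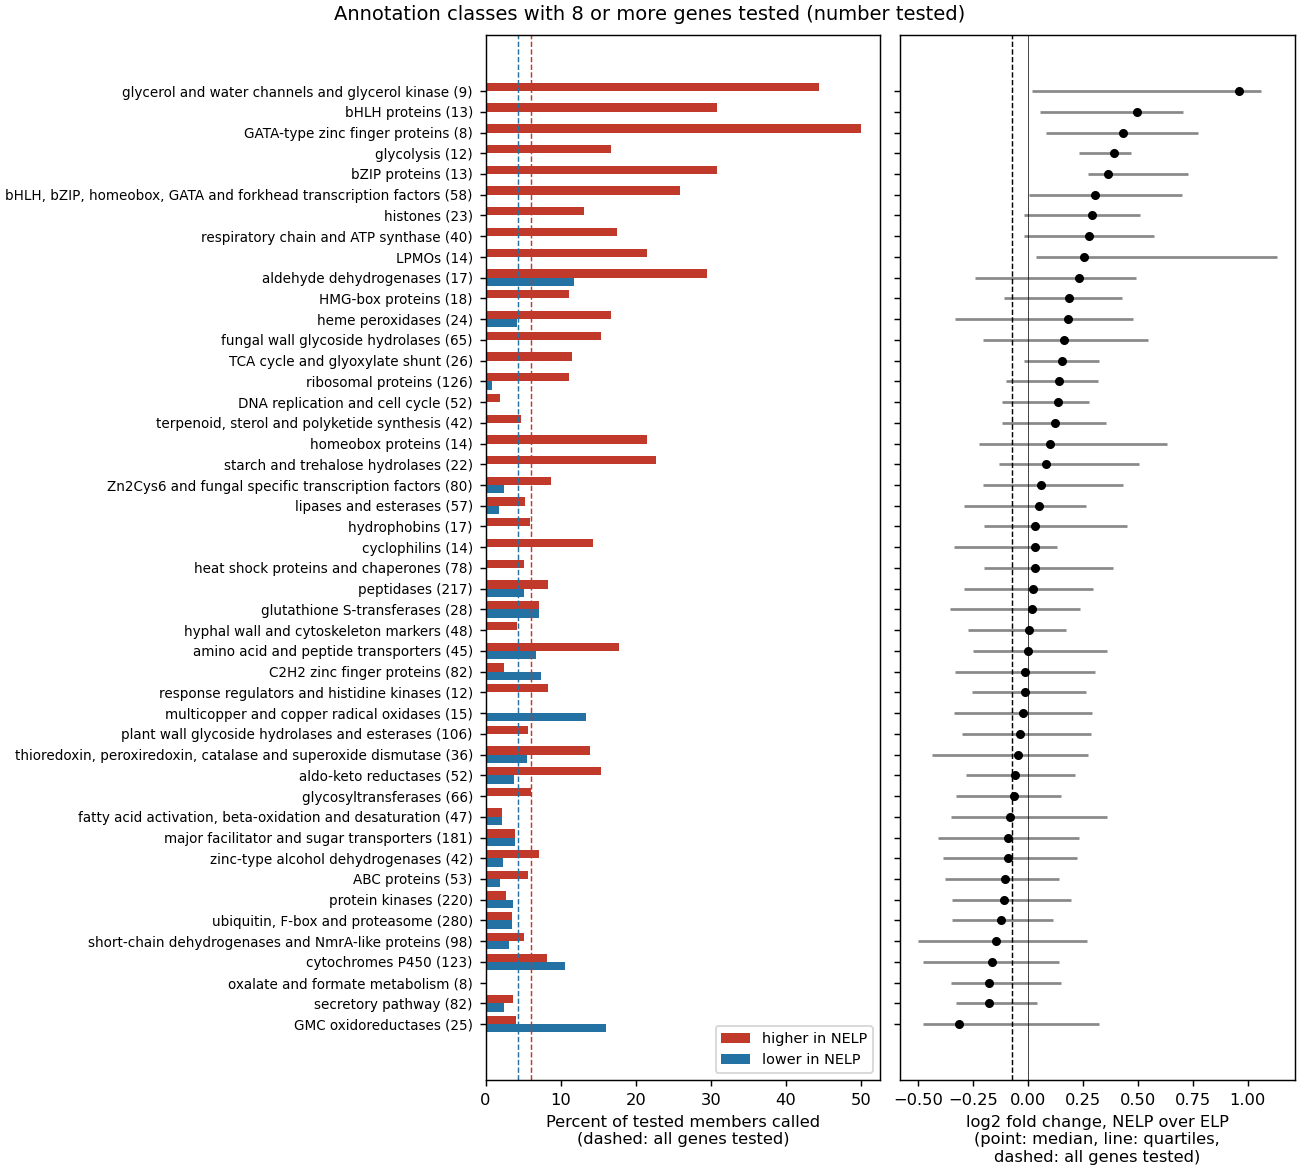
Left, the percent of tested members of each annotation class called higher (red) or lower (blue) in NELP, with dashed lines at 6.07 and 4.30% for all tested genes and the number of tested members in parentheses. Right, the median (point) and quartiles (line) of the log2 fold change of NELP over ELP, with the median of all tested genes dashed. Glycerol and water channels have the highest median (0.96) and GMC oxidoreductases the lowest (-0.31), and P450s are above both dashed shares.

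Of 106 tested models grouped as plant wall glycoside hydrolases and esterases, 6 (5.66%, close to the 6.07% of all genes) were higher and 0 (against 4.30%) lower, with a median of -0.04. The higher ones include Phlgi1_105611, named as a PL14 polysaccharide lyase. Without 1 library 2 to 6 were higher and 0 to 6 lower. The largest change was in the GH11 endoxylanase Phlgi1_21241, with 181, 66.5 and 199 RPKM in NELP and 13.1, 19.2 and 8.10 RPKM in ELP. It was lowest in NELP 2, did not overlap, and had a log2 fold change of 3.35 ± 0.47 (limma adjusted p = 0.013). A second GH11, Phlgi1_371372, was called at 23.2 ± 9.64 RPKM in NELP and 8.06 ± 1.90 RPKM in ELP, but lost its call in 5 of the 6 cases without 1 library. Of 14 lytic polysaccharide monooxygenases (LPMOs), copper enzymes that cleave crystalline cellulose by oxidation, 3 (21.4%) were higher and 0 lower, and the count of higher ones was 3 without each library in turn. The strongest, Phlgi1_125213, had 1207, 1480 and 1202 RPKM in NELP and 345, 255 and 325 RPKM in ELP, at a log2 fold change of 2.08 ± 0.17 (limma adjusted p = 0.0053). The others were Phlgi1_112944 and Phlgi1_64774. The study marks the models of Phlgi1_125213 and Phlgi1_64774 as truncated, so whether they encode whole enzymes is open.

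Classes of fungal wall hydrolases and of starch and trehalose hydrolases were called higher more often than the background of 6.07%. Of 65 tested models of fungal wall families, 10 (15.4%) were higher and 0 lower, with a median of 0.16 and 4 to 11 higher without 1 library. The GH18 chitinase Phlgi1_88507 had 487, 331 and 425 RPKM in NELP and 116, 90.8 and 63.7 RPKM in ELP. The GH17 glucanase Phlgi1_26602 had 574, 340 and 558 RPKM in NELP and 139, 137 and 101 RPKM in ELP. NELP 2 was the lowest NELP culture in both, neither overlapped, and their log2 fold changes were 2.22 ± 0.25 and 1.94 ± 0.24 (limma adjusted p = 0.0083 and 0.0097). Of 22 models grouped as hydrolases of starch and trehalose, 5 (22.7%) were higher and 0 lower, and without 1 library 1 to 5 were higher. The 5 include Phlgi1_309327, named only for a CBM21 domain and described as a putative phosphatase regulatory subunit. Among these the GH13 protein Phlgi1_33454 averaged 508 ± 102 RPKM in NELP and 188 ± 27.8 RPKM in ELP, and the glucoamylase Phlgi1_128120 averaged 172 ± 29.2 RPKM in NELP and 49.5 ± 19.1 RPKM in ELP. In 217 peptidases, 18 (8.29%) were higher and 11 (5.07%) lower, and without 1 library 2 to 17 were higher and 0 to 14 lower. The higher ones include the acid peptidase Phlgi1_96085, with 186, 76.9 and 103 RPKM in NELP and 31.3, 32.1 and 10.3 RPKM in ELP. This peptidase lost its call in 5 of the 6 cases without 1 library.

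Oxidoreductases of families with members linked to lignin changed in both directions. The multicopper oxidase Phlgi1_129839 had 34.2, 58.4 and 33.1 RPKM in NELP and 130, 213 and 330 RPKM in ELP. By the study's account this protein lacks a signature of laccases and may have iron oxidase activity. The dye-decolorizing peroxidase (DyP) Phlgi1_85295, a heme enzyme that oxidizes dyes and phenolic compounds, had 39.9, 60.8 and 24.5 RPKM in NELP and 116, 163 and 163 RPKM in ELP. Neither overlapped, and their log2 fold changes were -2.35 ± 0.37 and -1.88 ± 0.32 (limma adjusted p = 0.017 and 0.021). Each lost its call in 3 of the 6 cases without 1 library, at adjusted p up to 0.061 and 0.065. In all, multicopper and copper radical oxidases had 0 of 15 members higher and 2 (13.3%, against 4.30% of all genes) lower. GMC oxidoreductases, which release hydrogen peroxide from alcohols and sugars, had 1 of 25 higher and 4 (16%) lower, but 0 to 3 lower without 1 library. The 4 lower GMC models averaged under 13 RPKM in NELP and under 25 RPKM in ELP. Heme peroxidases had 4 of 24 (16.7%, against 6.07%) higher and 1 lower, and 0 to 4 higher without 1 library. The higher ones averaged at most 25.7 RPKM in NELP and 17.8 RPKM in ELP. No gene of oxalate and formate metabolism was called among 8 tested.

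Counts of called transcription factors varied between families. Proteins with bHLH, bZIP, homeobox, GATA-type or forkhead domains had 58 tested members. Of these 15 (25.9%, against 6.07% of all genes) were higher and 0 (against 4.30%) lower. Their median log2 fold change was 0.31, with positive values in 44. Without 1 library 2 to 15 were higher. By family, the counts were 4 of 13 bHLH, 4 of 13 bZIP, 3 of 14 homeobox, 4 of 8 GATA-type and 0 of 5 forkhead proteins. The bHLH protein Phlgi1_114860 had 26.4, 12.8 and 20.6 RPKM in NELP and 2.31, 4.77 and 3.60 RPKM in ELP, and Phlgi1_72355 had 29.1, 20.8 and 28.5 RPKM in NELP and 7.62, 7.16 and 7.68 RPKM in ELP. Neither overlapped, at log2 fold changes of 2.32 ± 0.32 and 1.72 ± 0.17 (limma adjusted p = 0.013 and 0.0071). C2H2 zinc finger proteins had 2 of 82 (2.44%) higher and 6 (7.32%) lower. Zn2Cys6 and related fungal factors had 7 of 80 (8.75%) higher and 2 (2.5%) lower, near the shares of all genes. The difference between these families was not tested. Of 18 HMG-box proteins, DNA-binding proteins that include mating-type regulators, 2 (11.1%) were higher and 0 lower. These are Phlgi1_340250, with 270, 368 and 260 RPKM in NELP and 70.7, 55.4 and 63.8 RPKM in ELP, and Phlgi1_36458, with 246, 217 and 317 RPKM in NELP and 55.7, 79.05 and 52.5 RPKM in ELP.

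Small positive medians were seen for ribosomal proteins, the respiratory chain, histones and DNA replication, but not for all genes of growth. The secretory pathway had a median of -0.18, with 25 of 82 tested members above 0, against -0.07 for all tested genes. Ribosomal proteins had 14 of 126 tested members (11.1%, against 6.07% of all genes) higher and 1 lower, with a median of 0.14. Without 1 library 0 to 9 ribosomal proteins were higher. Their summed transcripts of 43723, 44754 and 43355 RPKM in NELP lay inside the range of 50468, 40697 and 35173 RPKM in ELP. The respiratory chain and ATP synthase had 7 of 40 (17.5%) higher and 0 lower, with a median of 0.28 and 3 to 6 higher without 1 library. Examples are the F1 epsilon subunit Phlgi1_103662, with 60.3, 53.9 and 55.8 RPKM in NELP and 23.8, 21.9 and 17.2 RPKM in ELP, and the complex I subunit Phlgi1_61085, with 109, 81.4 and 102 RPKM in NELP and 38.4, 39.3 and 34.4 RPKM in ELP. Neither overlapped, at log2 fold changes of 1.42 ± 0.16 and 1.36 ± 0.16 (limma adjusted p = 0.0083 each). Histones had 3 of 23 higher, DNA replication and cell cycle 1 of 52, and heat shock proteins and chaperones 4 of 78, each with 0 lower. Protein kinases with 6 of 220 higher and 8 lower, and the ubiquitin system with 10 of 280 higher and 10 lower, stayed below the background shares of 6.07 and 4.30%.

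Across the 121 InterPro descriptions with at least 10 tested genes, medians of the log2 fold change ran from -0.41 for rare lipoprotein A to 0.50 for the bHLH region. Prefoldin, a chaperone that binds nascent actin and tubulin, had 0 of 11 members called but a median of 0.40. BRCT, a domain of DNA repair proteins, had 3 of 12 higher and a median of 0.39. Over all tested genes 6.07% were higher and 4.30% lower, and groups of this size hold few calls at those shares. At the other end, FAD linked oxidases and isopenicillin N synthase-like proteins had medians of -0.36 and -0.35. Short genes leaned lower, with a median of -0.15 in the shortest eighth of gene lengths and 0.03 in the longest, a Spearman rho of 0.10 across genes. Shares called higher were 7.53% in the shortest eighth and 4.91% in the longest, and shares called lower 5.27 and 2.78%.

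Many of the most changed genes are named hypothetical. This holds for 24 of the 41 genes more than 4-fold higher, and for 929 of all 10970 tested genes. Another 8873 tested genes have no function name, against 0 of the 41. The names were not given independently of the comparison, as described below. Phlgi1_385265 had 117, 238 and 188 RPKM in NELP and 6.05, 13.3 and 15.7 RPKM in ELP, and its 15.5-fold ratio was the largest of the 41. Phlgi1_118355, a model with the domain of fungal mating-type pheromones, had 123, 142 and 133 RPKM in NELP and 7.79, 14.2 and 11.96 RPKM in ELP. Neither overlapped, and their log2 fold changes were 3.94 ± 0.39 and 3.53 ± 0.22 (limma adjusted p = 0.0071 and 0.0030). The hypothetical Phlgi1_127783 had 190, 1011 and 275 RPKM in NELP and 70.3, 81.1 and 39.97 RPKM in ELP, so that NELP 2 set most of its difference. Its call was lost without any one of the 6 libraries. Among genes lower, Phlgi1_266925 had 73.8, 77.4 and 78.3 RPKM in NELP and 173, 405 and 698 RPKM in ELP, even in NELP and spread 4-fold in ELP.

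The function names of the table were not given independently of this comparison. Of the 362 genes past the 2-fold criteria, 357 (98.6%) have an entry in the function name column, 233 of them hypothetical, against 16.4% of the other 10608 tested genes. The share with an InterPro description was alike, at 58.6 and 61.3%. A share of changed genes among those with a function name, or among those named hypothetical, is therefore set in part by how the names were assigned. For this reason class members were found by either column and, except in 3 classes, counted again by InterPro description alone, which moved 3 of the counts by more than 1.5 times. These were members of glycolysis called higher, of fatty acid metabolism called lower and of the secretory pathway called lower. The 3 classes not counted again are the hydrolases of plant walls, of fungal walls and of starch and trehalose, which were found by function name alone. Of tested models whose InterPro description opens with glycoside or glycosyl hydrolase, all 19 called and 117 of 123 not called have a hydrolase family as function name. The 36 genes of the study's own lists for this comparison had 35 higher and 1 lower, but they were picked on these libraries and are not independent evidence of the direction.

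**Figure D5:**
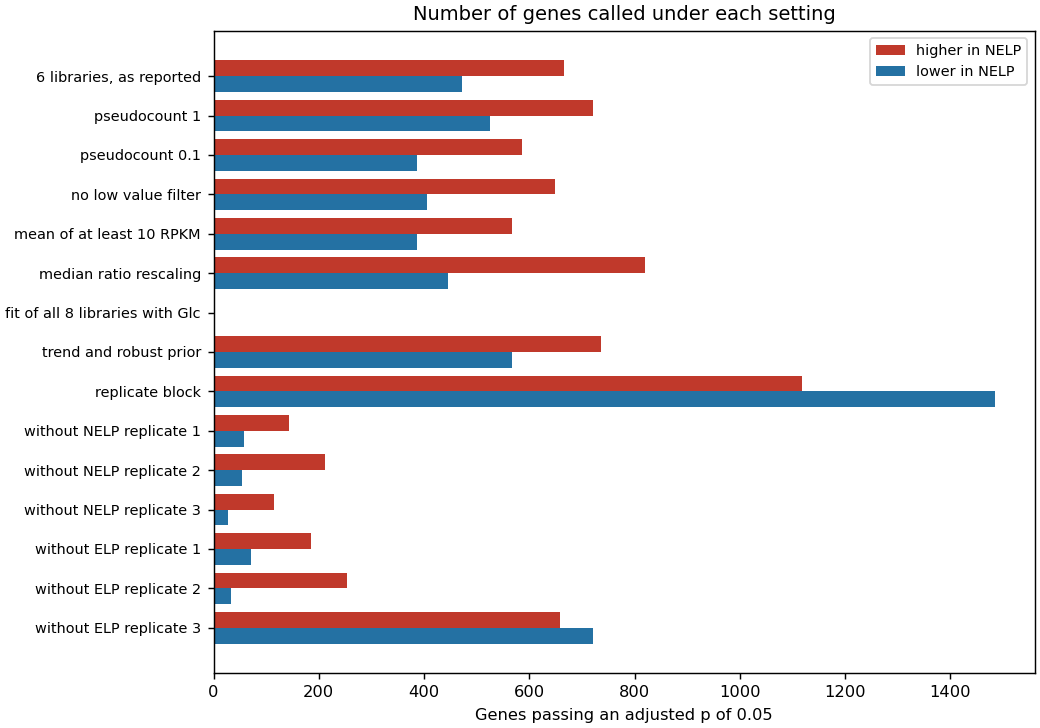
Number of genes called higher (red) and lower (blue) in NELP for the 6 libraries as reported and under each of the 14 alternatives. Leaving out 1 library lowered the count of genes higher to between 115 and 658, and the fit with glucose called 1 gene.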

How the data were processed

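Poly-A RNA libraries were sequenced by the authors in 1 lane of an Illumina HiSeq2000 with CASAVA 1.8.2, per the labels. The authors mapped reads with SeqNGen and computed the deposited RPKM values with QSeq. The kit does not mark strand. Read totals and the counting of multiply mapping reads are not stated in the sources used. Reads per library were estimated from the spacing of RPKM × gene length (RefSeq table, assembly Phlgi1). Only 31.3 to 39.7% of values at up to 20 reads were whole within 0.05 reads, so no count test was run.

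The 6 libraries were fitted in limma 3.58.1 (R 4.3.3) on log2(RPKM + 0.5), 1 factor for medium, after a minimum mean of 1 RPKM. The script was tested on simulated data. With 3 against 3 an exact permutation test cannot go below p = 0.10. Culture replicates were triplicate per the labels. Columns of the authors' own comparisons were not used. Genes named are the 10 most changed with a function name and the most changed without one per direction, the most changed members of each class, the 10 most abundant and the study's lists. Members, lists and classes were chosen with earlier results of these data known. Alternatives were pseudocounts of 1 and 0.1, no filter, a minimum of 10 RPKM, median ratio rescaling, a fit of 8 libraries, a trended robust prior, a replicate block and leaving out each library.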

Additional observations from a re-analysis of the deposited data

How the results depend on the processing

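Pseudocounts of 1 and 0.1, no filter, a minimum mean of 10 RPKM, median ratio rescaling and a trended robust prior kept all 6 counts of calls within 1.5 times. They called 567 to 820 genes higher and 386 to 567 lower. The fit with glucose called 1 gene higher and 0 lower, also at 2-fold and at 4-fold. Without 1 library the counts were 115 to 658 higher and 28 to 721 lower, 91 to 262 and 20 to 269 at 2-fold, and 23 to 46 and 0 to 12 at 4-fold. Same-numbered libraries correlated in their deviations from the medium means at 0.41, -0.14 and 0.50, the best match for replicates 1 and 3. The replicate numbers are not stated to mark shared cultures, so they were not taken as pairs. With the replicate block 1119 genes were called higher and 1486 lower, 218 lower at 2-fold and 15 lower at 4-fold. NELP 2 did not correlate best with ELP 2. The ABC-F protein Phlgi1_85208, not called, had a log2 fold change of -0.103, which ran from -0.189 without NELP 3 to 0.022 without NELP 2. The causes were not tested. Limits are the 3 libraries per medium, the lower depth of ELP and unknown sharing of reads among gene copies.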

Other observations

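The cultures of 1 medium did not vary alike across the changed genes. Of the 258 genes more than 2-fold higher, NELP 2 was the lowest NELP library in 159 and the highest in 49, and ELP 2 was the highest ELP library in 143. Chitinase, glucanase, endoxylanase and peptidase genes named above were among those lowest in NELP 2, and the P450s Phlgi1_119094, Phlgi1_20511 and Phlgi1_75338 among those highest there. Of the 104 genes more than 2-fold lower, NELP 3 was the lowest NELP library in 80 and ELP 3 the lowest ELP library in 68. The libraries were not grouped by these values.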
